A study of Homo sapiens with 4 samples.

Results

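The 9 genes described here encode the receptors and transcription factors of the Hedgehog pathway. They are GLI1, GLI2, GLI3, PTCH1, SMO, SUFU, HHIP, GAS1 and BOC. They were chosen by name for their role in the pathway, with the rise of GLI3 in these data already known. They were matched by symbol, and all 9 were found among 63568 gene identifiers. All 9 also passed the filter on low counts that left 21932 genes for testing, with at least 169 counts in every library. RNA-Seq was made from HGC-27, a gastric carcinoma cell line, after infection with lentivirus for either a scrambled control shRNA (control shRNA, 2 libraries) or shRNA against USP47, a deubiquitinating enzyme (USP47 shRNA, 2 libraries). Both groups carried the pLKO.1 vector and were kept as stably selected cells with puromycin. The submitters call the libraries of a group biological duplicates, while the study's methods speak of triplicate extraction. The study made knockdown lines with 2 independent shRNAs and speaks of shRNAs in the plural for its RNA-Seq, but which shRNA each library carried is not given in the sources used here, and any such difference would be part of the spread between the libraries. The comparison asks whether the rise of GLI3, a transcription factor that the study examined as a regulator of USP47, came with changes in the other parts of its pathway.

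Hedgehog ligands bind PTCH1, a membrane protein that otherwise holds the transducer SMO inactive. The co-receptors GAS1 and BOC help the ligand bind, while HHIP is a membrane protein that captures it. Active SMO, which works at the primary cilium, releases the GLI transcription factors from SUFU. GLI1 acts as an activator and is itself induced by the pathway. GLI2 is the main initial activator, and GLI3 is largely cut to a repressor in the absence of ligand. In the stomach the pathway is known for its part in patterning and in upkeep of the epithelium, and PTCH1, GLI1 and HHIP are classical target genes. Counts of RNA cannot tell the activator from the repressor form of GLI3, which differ only in the protein.

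The GLI factors share a DNA sequence, GACCACCCA, that their zinc fingers recognise. It was searched on both strands in the RefSeq promoter windows of GRCh38, which reach from 250 bases before to 50 bases after a start site. The table held windows for 7 of the 9 genes (13 windows, none for GLI1 or GLI3). PTCH1 was the only one of the 7 with a match, in 1 of its 5 windows, while 83 of all 35116 windows (0.236%) held one. Of the other pathway genes and target genes listed below, 0 of 71 and 0 of 29 windows held a match. The PTCH1 window with the match is shown because PTCH1 is one of the genes by which pathway activity is usually read. It lies at chr9:95509217-95509516 on the minus strand, and the capitals mark the match, which reads as the reverse complement of the searched letters and lies from 172 to 164 bases upstream of the start site.
PTCH1 promoter: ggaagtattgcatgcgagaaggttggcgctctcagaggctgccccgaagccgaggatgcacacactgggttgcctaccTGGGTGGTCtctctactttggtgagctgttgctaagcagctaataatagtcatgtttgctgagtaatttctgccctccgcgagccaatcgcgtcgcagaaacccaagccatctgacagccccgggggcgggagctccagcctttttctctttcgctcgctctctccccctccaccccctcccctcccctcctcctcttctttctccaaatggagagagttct
The 13 windows of the members include no other match, and the single window of USP47 held none either. A match is a stretch of letters and not evidence of binding, and the level of PTCH1 RNA is given below. Only exact letters in the reference sequence were searched, so the lack of a match does not show a lack of binding. The study reports that GLI3 binds the USP47 promoter at a single-base variant, with a preference for the G allele. Whether the USP47 window holds that position was not checked.

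Total counts lay between 15649899 and 20140273 per library. USP47, the target of the shRNA, stood at 79.8 and 65.9 CPM (counts scaled to a common library total after TMM normalization) in control cells, against 35.9 and 21.5 CPM in USP47 shRNA cells. Replicate 1 of the knockdown thus kept 49.3% and replicate 2 kept 29.5% of the mean control level. On the log2 scale it changed by -1.34 (SE, the standard error, 0.21), with an adjusted p of 0.00362 by the quasi-likelihood test of edgeR, called below where the adjusted p was under 0.05. The 5 epithelial markers EPCAM, KRT8, KRT18, KRT19 and CDH1 summed to between 1.46 and 2.24 CPM in the 4 libraries, with KRT18 and KRT19 at 0 or 1 count, so the defining markers of the epithelial type in the label were at or near 0. EPCAM was called lower on 12 and 11 counts against 3 and 3, and KRT8 and CDH1 had overlapping groups. Of the mesenchymal markers VIM, ZEB1, FN1 and CDH2, which summed to between 479 and 646 CPM, CDH2 had 3 to 10 counts and FN1 was called lower, at 72.9 and 73.6 CPM against 26.1 and 31.9 CPM. The part of these markers in the results below was not tested. Blood markers (PTPRC, CD3E, CD68 and HBB) summed to between 0.882 and 1.18 CPM, and the endothelial markers CDH5 and VWF to at most 0.559 CPM.

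Levels were compared between genes with the deposited TPM values, which are scaled to gene length and are given here with the lower library first. In control cells PTCH1 (20.6 and 21.8 TPM) and GLI3 (19.9 and 21.5 TPM) were the most abundant of the 9, with overlapping values, and more than 85% of tested genes lay below each of them. GLI2 (12.3 and 14.6 TPM) and SUFU (12.8 and 12.9 TPM) followed, and also overlapped. The next were GAS1 at 12.04 and 12.56 TPM, SMO at 9.63 and 10.2 TPM, GLI1 at 7.27 and 7.56 TPM and BOC at 5.37 and 6.26 TPM. HHIP was lowest, at 2.46 and 2.47 TPM. From SUFU downward the values of neighbours did not overlap in the 2 control libraries.
With USP47 shRNA the order changed at the top, and GLI1 and BOC changed places, while SMO stayed sixth and HHIP lowest. GLI3 stood alone at the top with 26.3 and 31.4 TPM. PTCH1, GAS1, SUFU and GLI2 formed a run of overlapping neighbours with means of 17.2, 15.7, 14.2 and 12.9 TPM. SMO dropped to 4.37 and 5.03 TPM and overlapped BOC, and GLI1 fell below BOC to 3.04 and 3.86 TPM. TPM was not rescaled between libraries, so the changes themselves were tested on counts.

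**Figure D1:**
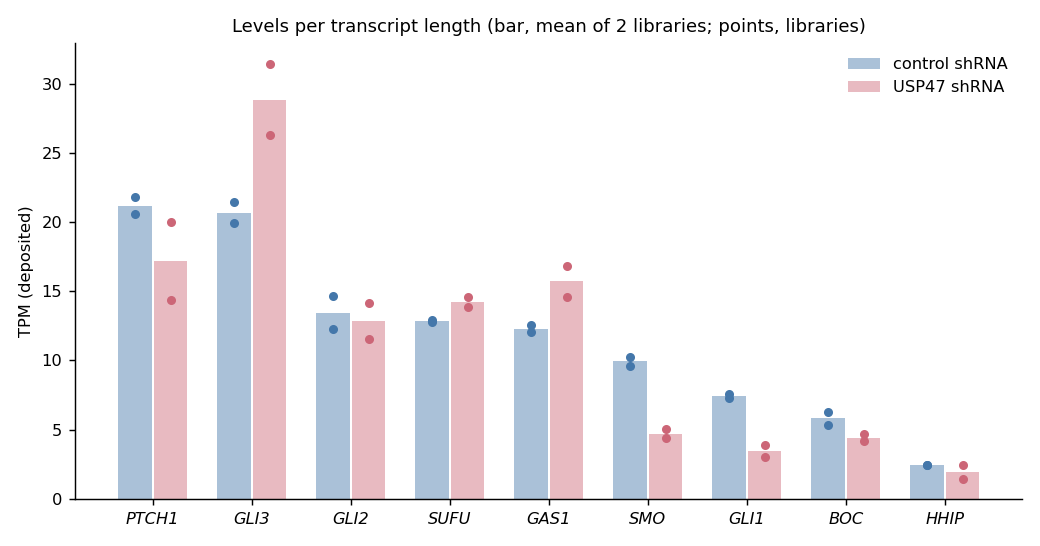
TPM as deposited (y axis) of the 9 Hedgehog genes (x axis, ordered by the control mean) with control shRNA and USP47 shRNA. Bars are means of 2 libraries and points the libraries. GLI3 rises above PTCH1 with USP47 shRNA, while the means of SMO and GLI1 are lower than with control shRNA.

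Of the 3 GLI factors, 1 rose, 1 fell and 1 did not pass the test. GLI3 (chromosome 7 of GRCh37, 42000547 to 42303699) stood at 136 and 143 CPM with control shRNA, against 199 and 223 CPM with USP47 shRNA. Both knockdown libraries lay above both control libraries. In these bulk libraries a change in RNA per cell and a change in the share of cells with the RNA cannot be told apart. The rise was 1.51-fold, a log2 change of 0.60 (SE 0.13, 95% interval 0.31 to 0.89, adjusted p = 0.0144, edgeR). Without USP47 shRNA replicate 1 the estimate was 0.69, and without replicate 2 it was 0.52. The call was lost in the fits without control replicate 1 (0.56, adjusted p = 0.293) and without control replicate 2 (0.63, adjusted p = 0.155), in which the lone control library is assumed to vary like the knockdown libraries. The pseudogene HMGN2P30, which lies within GLI3 on the opposite strand, had 9 to 26 counts per library beside at least 2310 for GLI3.

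GLI1 (chromosome 12, 57853568 to 57866051), the activator that is also a target of the pathway, was counted 356 and 486 times with control shRNA and 233 and 169 times with USP47 shRNA. On the CPM scale these were 20.9 and 24.7 against 11.2 and 11.7. The groups did not overlap, and the knockdown libraries lay closer to each other than the controls did. The log2 fold change was -0.996 (SE 0.15, 95% interval -1.33 to -0.66, adjusted p = 0.00308, edgeR). It kept its call in all 7 other settings and in each fit that left out 1 library, where it lay between -1.11 and -0.87. The overlapping gene ARHGAP9 had 1 to 6 counts per library.

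GLI2 (chromosome 2, 121493199 to 121750229) had 73.5 and 70.1 CPM in control cells, against 71.5 and 78.0 CPM after knockdown, so the groups overlapped. Its log2 fold change of 0.058 (SE 0.12) had a 95% interval from -0.22 to 0.34, so small changes in either direction could not be detected. The proportions of the 3 factors differed between the groups. The ratio of GLI3 to GLI1 on the TPM scale was 2.95 and 2.63 with control shRNA, against 8.12 and 8.64 with USP47 shRNA, a difference of 1.59 in log2. The ratio of GLI3 to GLI2 was 1.47 and 1.62 against 2.22 and 2.27. For both ratios the groups did not overlap, and the 2-sided exact permutation test gave p = 0.333, the smallest that 2 libraries against 2 allow.

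**Figure D2:**
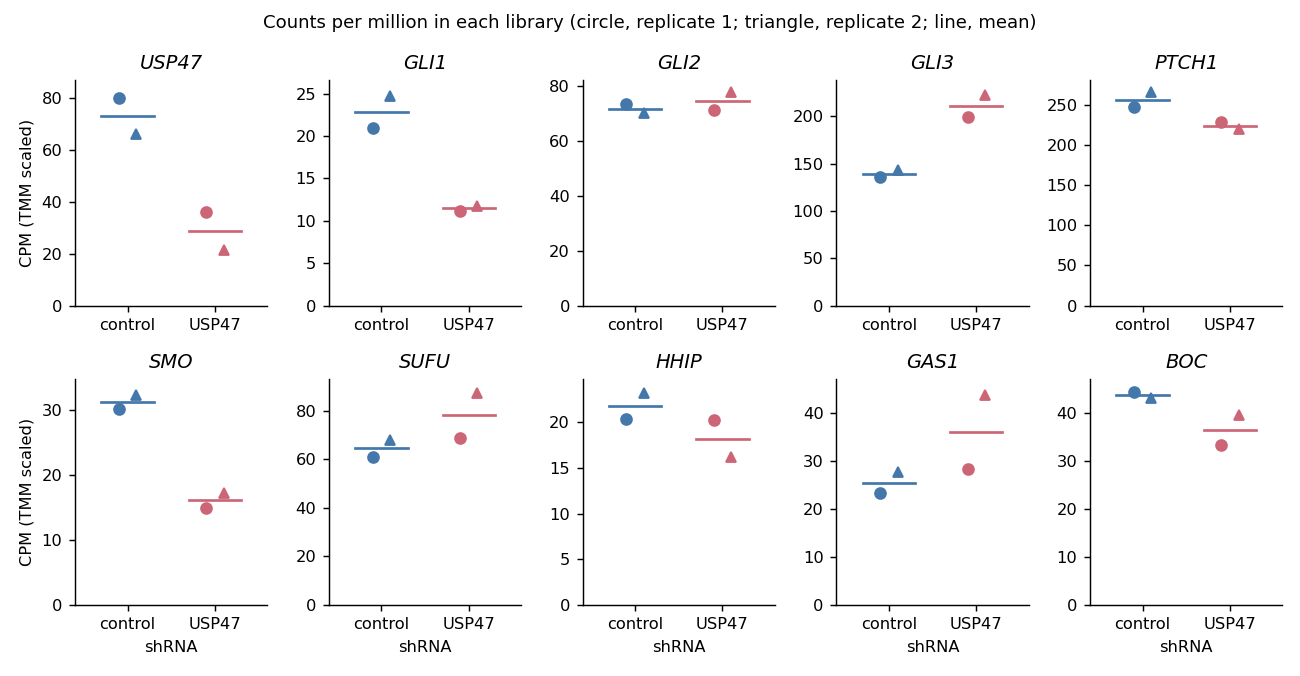
CPM after TMM scaling (y axis, from 0 in each panel) of USP47 and the 9 Hedgehog genes in each library, by shRNA (x axis). Circles are replicate 1, triangles replicate 2 and lines the mean of 2 libraries. GLI3 is higher and GLI1 and SMO are lower in both USP47 shRNA libraries, and in GAS1 and SUFU the 2 knockdown libraries stand apart from each other.

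Among the receptors, the transducer SMO fell while PTCH1, its inhibitor, did not pass the test. SMO (chromosome 7, 128828474 to 128853386) had 30.2 and 32.3 CPM with control shRNA and 14.9 and 17.3 CPM with USP47 shRNA. No knockdown library reached the level of a control library. The fall was 1.95-fold, a log2 change of -0.96 (SE 0.14, 95% interval -1.28 to -0.64, adjusted p = 0.00273, edgeR). The estimate lay between -1.06 and -0.85 in the fits that left out 1 library, all of which kept the call, as did all 7 other settings.

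PTCH1 (chromosome 9, 98205262 to 98279339) had 247 and 266 CPM in control cells and 228 and 219 CPM in knockdown cells. The knockdown libraries lay slightly below the controls, with a log2 change of -0.20 (SE 0.13, 95% interval -0.49 to 0.092, adjusted p = 0.324, edgeR). The ratio of GLI1 to PTCH1, both classical targets, on the TPM scale was 0.334 and 0.367 in control cells, against 0.193 and 0.211 in knockdown cells (2-sided exact permutation p = 0.333). Within each knockdown library GLI1 was thus lower relative to PTCH1 than in either control library. Of 3 genes on the strand opposite PTCH1, none had more than 83 counts in a library or was called.

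The co-receptors GAS1 and BOC moved in opposite directions, neither past the threshold. GAS1 (chromosome 9, 89559277 to 89562421) had 23.3 and 27.6 CPM with control shRNA and 28.3 and 43.8 CPM with USP47 shRNA. The high value came from replicate 2, which had the lower USP47 level, and also the lowest total counts and TMM factor (0.919) of the libraries. A link to any of these was not tested. The log2 fold change of 0.50 (SE 0.20, adjusted p = 0.110, edgeR) became 0.16 without that library. Without USP47 shRNA replicate 1 it was 0.79. In such fits the lone knockdown library is assumed to vary like the control libraries, so only the estimates are given. BOC (chromosome 3, 112929850 to 113006306) had 44.3 and 43.1 CPM against 33.3 and 39.6 CPM, with both knockdown libraries below both controls and a log2 change of -0.26 (SE 0.14, adjusted p = 0.208). The change of BOC was -0.39 without USP47 shRNA replicate 2 and -0.13 without replicate 1.

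HHIP (chromosome 4, 145567308 to 145666423), the ligand-capturing inhibitor and target gene, had 20.3 and 23.2 CPM with control shRNA and 20.3 and 16.2 CPM with USP47 shRNA. Knockdown replicate 1 lay just under the lower control, and the log2 fold change was -0.25 (SE 0.16, adjusted p = 0.297, edgeR). Without USP47 shRNA replicate 1 it was -0.42, and without replicate 2 it was -0.10. The antisense gene HHIP-AS1, chosen for its overlap with HHIP after its values were seen, fell from 23 and 28 counts to 14 and 5 (log2 fold change -1.36, SE 0.38, adjusted p = 0.0345). Whether counting used the strand is not stated, so reads of this pair may be mixed. SUFU (chromosome 10, 104263729 to 104393292), which retains the GLI factors in the cytoplasm, had 60.9 and 68.1 CPM against 69.0 and 87.4 CPM. Its log2 fold change was 0.28 (SE 0.15, adjusted p = 0.222, edgeR), which became 0.45 without USP47 shRNA replicate 1 and 0.10 without replicate 2.

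Of the 9 genes, 1 was called higher and 2 were called lower, beside 6.52% and 9.56% of all 21932 tested genes in those directions and 16.1% in either. The median log2 fold change of the 9 was -0.20, against -0.0083 over all tested genes. The groups did not overlap in 8 of the 9, where 61.0% of tested genes showed no overlap. The rise of GLI3 was known when the genes were listed. GLI3, GLI1 and SMO were the called genes in all 6 other settings without a replicate block. GLI1 and SMO also kept their call in each fit that left out 1 library. The number called was lower with a control library left out than with a knockdown library left out, as over all tested genes.

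**Figure D3:**
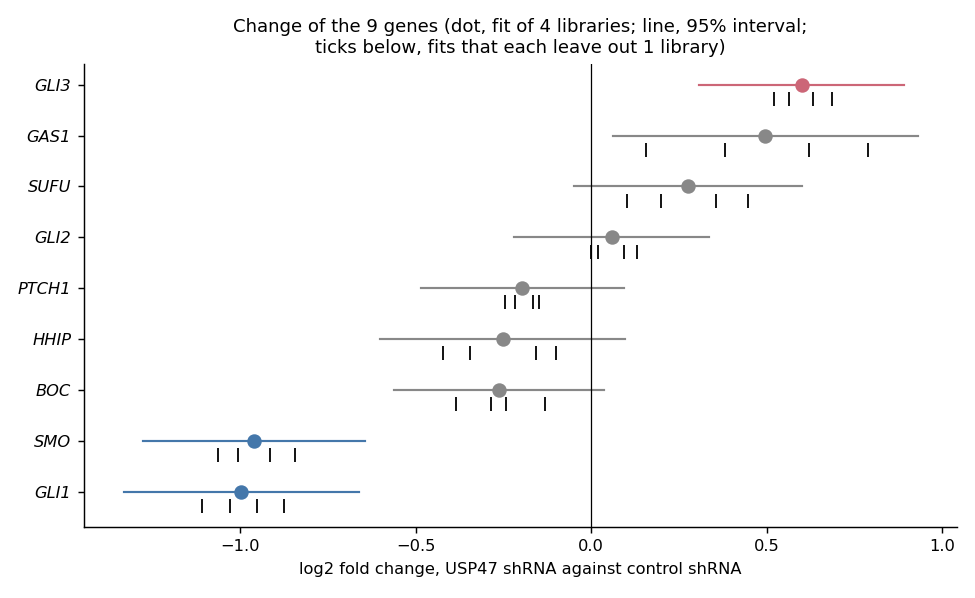
Log2 fold change of USP47 shRNA against control shRNA (x axis) for the 9 Hedgehog genes. Dots are estimates from 4 libraries (red, called higher; blue, called lower; grey, not called), lines are 95% intervals, and the ticks below each line are the 4 fits that left out 1 library. The ticks of GLI1 and SMO stay below -0.8 and those of GLI3 above 0.5, while the ticks of GAS1 spread from 0.16 to 0.79.

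The ligands themselves were barely counted. SHH had 0 and 2 counts with control shRNA, against 4 and 2 with USP47 shRNA, IHH had 1 and 0 against 3 and 2, and DHH had 7 and 5 against 1 and 5. None of the 3 was tested, and a count of 0 allows a level of up to 0.176 CPM in control replicate 1 and 0.153 CPM in control replicate 2, for counting error only. Of 6 tested genes in the list for ligand maturation and release, which also held the kinase GRK2, 2 rose and 2 fell. This stands beside 6.52% and 9.56% of all tested genes. HHAT, which attaches palmitate to the ligands, fell from 6.998 and 5.85 CPM to 2.78 and 2.64 CPM (log2 fold change -1.23, SE 0.20). SCUBE3, a secreted protein of the family that helps release ligands, fell from 27.5 and 28.3 CPM to 14.2 and 16.5 CPM (log2 fold change -0.86, SE 0.14), and its antisense gene SCUBE3-AS1 fell with it (-1.14). DISP1, which exports the ligands, rose from 92.2 and 83.5 CPM to 138 and 144 CPM (log2 fold change 0.69, SE 0.13). Its paralog DISP2, at 4.76 and 4.52 CPM against 6.43 and 8.76 CPM, had a log2 change of 0.70 that passed the threshold (adjusted p = 0.0424) and lost its call by DESeq2's Wald test (adjusted p = 0.111), with scaling by library size only and with no filter.
SCUBE1 had 8 to 11 counts per library and SCUBE2 had 10 to 22. The kinase GRK2, also in this list, had a log2 change of -0.13 (SE 0.15).

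Of the other receptors and co-receptors none was called among 6 tested by edgeR, beside 16.1% of all tested genes, and none by DESeq2. GPC4 alone had an unadjusted p under 0.05 by edgeR. Among the other settings that used every library, GPC4 was called only with the replicate number as a block, where 7419 genes were called in all. CDON, the closest relative of BOC, had 93.1 and 93.2 CPM in control cells and 87.9 and 91.0 CPM after knockdown (log2 fold change -0.059), with a 95% interval from -0.33 to 0.21. GPC4 had 109 and 106 CPM against 122 and 145 CPM (log2 fold change 0.31, SE 0.13, not called), and GPC6 had 52.7 and 55.1 against 58.4 and 58.0 CPM. LRP2, at 8.08 to 9.87 CPM, showed overlapping groups. GPC3 had 17 to 21 counts per library and GPC5 had 1 to 3.

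The list for SMO and the cilium held the largest rise among the pathway genes tested. TULP3, the adaptor that carries the receptor GPR161 into the cilium, rose from 23.2 and 24.3 CPM to 57.5 and 64.4 CPM (log2 fold change 1.36, SE 0.13). GPR161, a ciliary receptor that restrains the pathway, fell from 13.3 and 13.8 CPM to 6.14 and 6.46 CPM (log2 fold change -1.11, SE 0.16). The ratio of TULP3 to GPR161 was 3.22 and 3.26 in control cells and 17.4 and 18.5 in knockdown cells on the TPM scale. RHNO1 overlaps TULP3 on the same strand, and its own log2 fold change was -0.28 (adjusted p = 0.160).
KIF7, the ciliary kinesin that regulates GLI processing, fell from 24.2 and 24.6 CPM to 16.1 and 11.4 CPM (log2 fold change -0.82, SE 0.17). TICRR overlaps KIF7 on the opposite strand, with 1090 to 1909 counts per library beside 164 to 484 for KIF7. It was not called (log2 fold change -0.15), and reads of the pair may be mixed, as the strand setting is not stated. TULP3, GPR161 and KIF7 kept their call in each of the 7 other settings and in each fit that left out 1 library. Of the 12 tested genes of this list, 9 had estimates below 0 (11144 of 21932 over all tested genes) and the median was -0.34 (-0.0083 over all). The 1 called higher and 2 called lower compare with 6.52% and 9.56% of all tested genes. Uncalled genes with many reads were DYNC2H1, at 151 and 128 CPM against 118 and 71.9 CPM, and MGRN1 (log2 fold change 0.18).

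Among 21 kinases, ubiquitin ligase subunits and other modifiers of GLI proteins, 3 were called, all higher. Their share of 14.3% stands beside 6.52% of all tested genes called higher, 9.56% called lower and 16.1% in either direction. HDAC1, which deacetylates GLI1 and GLI2, rose from 87.4 and 78.2 CPM to 115 and 134 CPM (log2 fold change 0.59, SE 0.14). SPOP, the adaptor by which CUL3 ligase marks GLI2 and GLI3 for degradation, rose from 64.2 and 65.0 CPM to 84.6 and 91.6 CPM (log2 fold change 0.45, SE 0.12). DYRK2, a kinase of GLI2, rose from 70.9 and 73.5 CPM to 93.0 and 104 CPM (log2 fold change 0.45, SE 0.13). SPOP and DYRK2 lost their call when only library size was used for scaling (adjusted p = 0.0539 and 0.0514) and with no filter on low counts.
Kinases of the protein kinase A and casein kinase families, which phosphorylate GLI proteins, were among the abundant genes that were not called, with log2 fold changes of -0.15 for PRKACA, 0.063 for CSNK1D and -0.01 for CSNK1E. BTRC, a ligase adaptor that acts on phosphorylated GLI3, had 62.0 and 57.9 CPM against 73.4 and 72.8 CPM (log2 fold change 0.29, SE 0.12, not called).

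Over the 45 tested genes of these 4 lists, 6 were called higher and 4 lower, a share of 22.2% beside 16.1% of all tested genes, and the median log2 fold change was -0.0022. With 1 library left out, the number called was lower where it was a control library than where it was a knockdown library. The same held over all tested genes. TULP3, GPR161, HHAT, KIF7 and SCUBE3 were called in all 4 of these fits. The calls of DISP1, DISP2, HDAC1, SPOP and DYRK2 were lost without either control library. That of DISP2 was also lost without USP47 shRNA replicate 2, where its log2 fold change was 0.47.

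**Figure D4:**
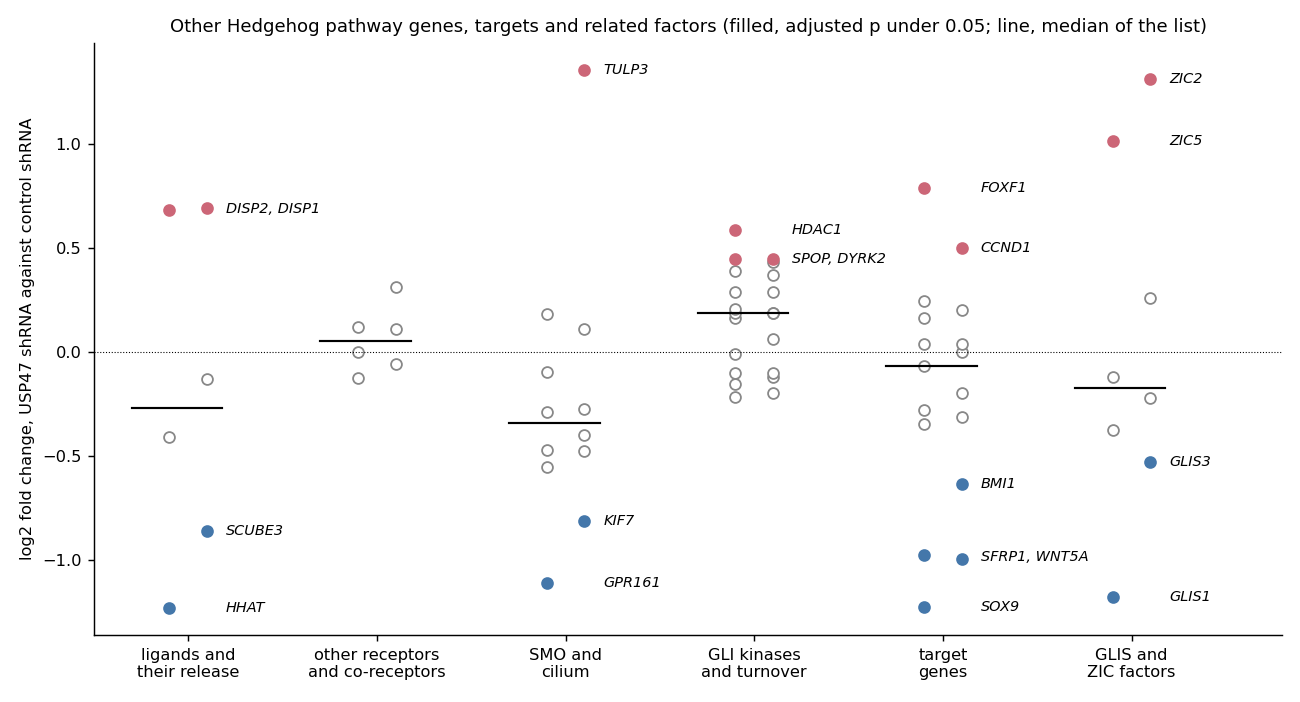
Log2 fold change of USP47 shRNA against control shRNA (y axis) for the tested genes of 6 lists (x axis). Each circle is a gene, filled where the adjusted p was under 0.05 (red higher, blue lower) and then named, and the line is the median of the list. Calls lie on both sides of 0 in the lists of ligand release, cilium, target and GLIS and ZIC genes, and the median of the cilium list is -0.34.

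Of 25 target genes other than the 9, 17 had enough counts to be tested, 2 were called higher and 4 lower. The list was written from general knowledge of Hedgehog targets in many tissues, and several of its genes also answer to other pathways. FOXF1, a mesenchymal transcription factor induced by Hedgehog in the gut, rose from 17.2 and 20.2 CPM to 28.1 and 36.9 CPM (log2 fold change 0.79, SE 0.17, adjusted p = 0.0123, edgeR). CCND1, the cyclin D1 gene, rose from 198 and 206 CPM to 267 and 304 CPM (log2 fold change 0.50, SE 0.14).
WNT5A, a secreted Wnt ligand, fell from 61.4 and 65.0 CPM to 33.7 and 29.7 CPM (log2 fold change -0.99, SE 0.13, adjusted p = 0.00157, edgeR). The Polycomb gene BMI1 fell from 28.8 and 28.4 CPM to 19.7 and 17.0 CPM (log2 fold change -0.64, SE 0.14). The other two rest on few reads. SOX9 had 40 and 61 counts against 23 and 18, and SFRP1, a Wnt antagonist, had 44 and 51 against 25 and 21. DESeq2's Wald test called neither (adjusted p = 0.103 for SOX9 and 0.216 for SFRP1).

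The most abundant target, CCND2, had 1122 and 1139 CPM against 883 and 1087 CPM and was not called (log2 fold change -0.20, SE 0.16). JAG2 (0.25, SE 0.14) and FOXM1 (-0.065, SE 0.14) were not called either. Of the 8 untested genes, MYCN had 11 and 10 counts against 4 and 1, and the rest had at most 9 counts in any library. The share called was 35.3% beside 16.1% of all tested genes, with a median log2 fold change of -0.065, and calls in both directions. DESeq2's Wald test called 4 targets, beside 2284 genes in all. In the fits that left out 1 library, fewer targets were called where a control library was missing, as over all tested genes. WNT5A was called in each of these fits and by DESeq2. CCND1 and BMI1 lost their call without either control library (adjusted p from 0.278 to 0.436 and from 0.101 to 0.149), and FOXF1 without control replicate 1 (adjusted p = 0.125). SOX9 was lost without control replicate 2, and SFRP1 in each fit that left out 1 library but the one without USP47 shRNA replicate 2.

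The GLIS and ZIC genes encode factors whose zinc fingers resemble those of the GLI family. ZIC2 rose from 17.6 and 17.2 CPM to 41.7 and 45.2 CPM (log2 fold change 1.32, SE 0.13), and ZIC5 rose from 13.3 and 13.5 CPM to 28.3 and 25.9 CPM (log2 fold change 1.01, SE 0.14). In both the groups lay far apart relative to the spread within them. GLIS3 fell from 41.1 and 42.0 CPM to 31.3 and 26.2 CPM (log2 fold change -0.53, SE 0.14), and GLIS1 fell from 33 and 57 counts to 25 and 13. When only library size was used for scaling, edgeR lost the calls of GLIS3 (adjusted p = 0.050008) and GLIS1 (adjusted p = 0.050134). The call of GLIS1 was also lost by DESeq2's Wald test (adjusted p = 0.146). GLIS2 and ZIC1 had overlapping groups. ZIC2 and ZIC5 were called in every fit that left out 1 library, GLIS3 was lost without either control library and GLIS1 without control replicate 2.

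The genes most like GLI3 over the 4 libraries were sought among 6206 other genes whose mean log2 CPM reached 5, by the distance between centred log2 CPM values. The 5 nearest were STARD3NL, NOMO1, TFG, NOMO3 and TRIM26, at distances from 0.0043 to 0.036 on the log2 scale. STARD3NL had 47.4 and 49.8 CPM in control cells and 69.4 and 77.9 CPM in knockdown cells. NOMO1 and NOMO3 are near-identical copies, and reads may be split between them. With 4 libraries such likeness is a description only.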

How the data were processed

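The 4 RNA-Seq libraries of HGC-27 cells fell, by genotype label, into control shRNA (2) and USP47 shRNA (2). What the authors deposited per gene is a raw count on hg19, from STAR 2.7.5c alignments. SAMtools 1.9 served to drop duplicates and alignments of low quality, and bases of quality under 20 had been trimmed. The deposited FPKM and TPM values follow from these counts and 1 length per gene. The submitters' processing notes also list featureCounts, and the strand setting of the counting is not given in the sources used here. Removal of duplicates without molecular identifiers lowers high counts most, and intervals cover the spread between these libraries only.

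A reference table of gene names gave a symbol for 55665 of 63568 identifiers, and a GENCODE annotation lifted to GRCh37 gave positions. PECAM1 was not analysed here. Genes were filtered with filterByExpr, scaled by TMM and compared with edgeR 4.0.16 in R 4.3.3 (robust quasi-likelihood fit without the legacy option, both directions), with Benjamini-Hochberg adjustment over 21932 genes and a threshold of 0.05. Standard errors (SE) were taken from each gene's log2 change and its F statistic. TPM was used only for levels between genes and ratios within a library, and FPKM only to recover lengths.

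The 9 genes and all lists were chosen with earlier results of these data known, and the lists were written from general knowledge. The text names USP47, the 9 genes, every called gene of a list, up to 3 of the most abundant uncalled genes of each list, all ligand, receptor and marker genes, and the 5 genes most like GLI3. A few genes that this rule names are not reported here. Other genes, such as those overlapping a named gene, were chosen after their values were seen. The other settings were the DESeq2 1.42.0 Wald test, DESeq2 size factors, library size alone, no filter, at least 10 counts in every library, the legacy fit, the replicate number as a block, and each library left out. Steps were tested on simulated data.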

Additional observations from a re-analysis of the deposited data

How the results depend on the processing

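GLI1 and SMO kept their direction and call in all 11 other fits. GLI3 kept both in the 7 that used every library (adjusted p from 5.46e-07 to 0.0164), and its log2 fold change lay between 0.52 and 0.69 in the fits that left out 1 library. GLI2 changed sign with library size alone (-0.014), and lay between -0.0019 and 0.13 with 1 library left out. With 1 library left out, the number called was 2 to 6 of the 9 genes, 5 to 21 of the other pathway genes, 2 to 10 of the targets and 1233 to 7272 of all genes, lowest where a control library was missing. The DESeq2 Wald test called 2284 genes in all (3527 by edgeR), 4 targets and the same 3 of the 9 genes. With the replicate number as a block, 7419 genes were called, among them 6 of the 9 genes (GAS1, SUFU and BOC were added) and 22 other pathway genes. Same-numbered libraries deviated together only weakly (correlation 0.213 over genes), 2 pairs are too few to tell, and no source says that a number marks a batch. The cause of these differences was not tested. At 2 libraries per group, no permutation of labels can give a p below 0.333.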
